A study of Mus musculus with 8 samples.

Results

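The serum proteins of the acute phase were followed as transcripts in the livers of mice infused through the portal vein with saline or with 4-HPAA (4-hydroxyphenylacetic acid), a metabolite of gut microbes. The genes were taken by name and not by a measured value, though with earlier results of these data known. They were 4 serum amyloid A genes (Saa1, Saa2, Saa3 and Saa4), 3 orosomucoid genes (Orm1, Orm2 and Orm3), and Hp, Lcn2 and Apcs. These are 10 of the 35975 genes to which the deposited transcripts were assigned. All 10 had at least 10 estimated counts in every library and were tested.

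The acute phase response is the change in the liver's secreted proteins that follows infection, tissue injury or surgery. Interleukin-6 acts through STAT3, and interleukin-1 and tumor necrosis factor act through NF-κB, and the C/EBP factors are bound at many of the same promoters. In the mouse, serum amyloid A and serum amyloid P are major acute phase proteins of the hepatocyte, and serum amyloid A is carried on high-density lipoprotein.

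All mice are labelled C57BL/6, and the study's methods give the substrain as C57BL/6J and the age at purchase as 8 to 10 weeks. Males and females were used in the study, and the sex of these 8 mice is not given in the labels. Both groups underwent laparotomy, cannulation of the portal vein and placement of an osmotic pump under the skin. For 2 weeks the pumps delivered 0.25 µL per hour of Normal Saline (n = 4) or of 55 mM 4-HPAA dissolved in normal saline (n = 4), so the comparison is between mice that had all been operated on, and unoperated or sham-operated livers were not analysed here. Whole liver was sequenced as mRNA, with 29559978 to 30673398 estimated counts per library. Each library is taken as 1 mouse. No label says how mice were assigned to the groups, and p-values measure the spread between these libraries. In whole tissue, fewer cells of a type and less RNA per cell cannot be told apart.

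The libraries carried the signature of liver. All 10 hepatocyte markers were measured, with a summed 115058 to 139845 CPM (counts relative to the library total, scaled by the TMM method) with Normal Saline and 108989 to 139530 with 4-HPAA. Red blood cell transcripts varied most among the 9 marker lists other than that of hepatocytes, from 261 to 2653 CPM with Normal Saline, highest in replicate 2, and from 164 to 750.4 CPM with 4-HPAA, highest in replicate 4. Kupffer cell and macrophage markers summed to 125 to 380.2 CPM with Normal Saline and 118 to 332 CPM with 4-HPAA. The 12 neutrophil markers were near 0, with 8 of them under 10 counts in every library and a sum of at most 2.83 CPM, and Ly6g, which defines the cell, had 0 or 1 count.

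The genes lie in clusters of near copies, which matters for how reads are assigned to them. In GRCm38, the 4 Saa genes stand side by side on chromosome 7 (Saa3 at 46711998 to 46715700, Saa4 at 46727998 to 46732603 and Saa1 at 46740497 to 46742980 on the minus strand, and Saa2 at 46751790 to 46754313 on the plus strand). Saa1 and Saa2 are thus divergently transcribed neighbors. The 3 Orm genes follow one another on the plus strand of chromosome 4, with Orm1 at 63344560 to 63348163, Orm3 at 63356162 to 63359511 and Orm2 at 63362449 to 63365878. Hp lies on chromosome 8 (109575128 to 109579172, minus strand), Lcn2 on chromosome 2 (32384633 to 32388252, minus strand) and Apcs on chromosome 1 (172893961 to 172895041, minus strand). No annotated gene overlapped any of the 10.

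The coding sequences of the closest copies are shown because a read is assigned to one of them by the few bases at which they differ. The start of the coding sequence of the main transcripts, from GENCODE M21, is given 5′ to 3′, with the bases that differ in an alignment in capitals. Between Saa1 and Saa2, 4 of the first 90 positions differ.
Saa1: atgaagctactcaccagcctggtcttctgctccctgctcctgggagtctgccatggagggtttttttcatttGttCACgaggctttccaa
Saa2: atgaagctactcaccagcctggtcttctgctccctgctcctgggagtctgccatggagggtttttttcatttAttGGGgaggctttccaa
Over the whole coding sequence, Saa1 and Saa2 were identical at 348 of 366 bases (95.1%), while Saa3 and Saa4 matched Saa1 at 75.9% and 65.0% of aligned columns. Among the 3 Orm genes, 19 of the first 90 aligned positions differ in at least 1 copy, 3 of them bases that Orm3 lacks.
Orm1: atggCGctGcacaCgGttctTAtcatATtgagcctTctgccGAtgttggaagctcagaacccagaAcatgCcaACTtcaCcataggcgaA
Orm2: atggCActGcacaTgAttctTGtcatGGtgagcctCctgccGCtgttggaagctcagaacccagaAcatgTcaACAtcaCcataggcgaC
Orm3: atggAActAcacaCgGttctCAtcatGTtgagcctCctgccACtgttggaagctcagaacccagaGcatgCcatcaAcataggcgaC
Orm1 and Orm2 were identical at 558 of 621 coding bases (89.9%), Orm2 and Orm3 at 87.9% and Orm1 and Orm3 at 86.0% of aligned columns.

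Pseudo-alignment looks up stretches of 31 bases, and reads made only of shared stretches are divided among copies by estimation. Of the 31-base stretches of the main transcript, 34.1% of those in Orm2, 30.1% in Saa1, 27.5% in Orm1, 22.2% in Saa2 and 9.42% in Orm3 also occur in another gene. The shares were 5.71% for Saa3, 1.60% for Saa4 and 0.304% for Hp, and Lcn2 and Apcs shared none. How such reads were divided could not be seen in the counts, and sums over the Saa1 and Saa2 copies and over the 3 Orm copies are given beside the single genes.

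The promoters of Saa1 with Saa2 and of Orm2 with Orm3, the 2 pairs with the highest rank correlations over the livers, are shown because STAT3, NF-κB and C/EBP act on genes of this class through their promoters. RefSeq promoter sequences (GRCm38.p6, 250 bases before to 50 after the start) were found for 8 of the 10 genes, and Orm1 and Hp had no entry. Each was searched on both strands for GGNNNTTCC (NF-κB), TTCNNNGAA (STAT) and TTNNGNAA (C/EBP), and matches are in capitals. Saa1 lies at chr7:46742931-46743230 on the minus strand and Saa2 at chr7:46751583-46751882 on the plus strand.
Saa1 promoter: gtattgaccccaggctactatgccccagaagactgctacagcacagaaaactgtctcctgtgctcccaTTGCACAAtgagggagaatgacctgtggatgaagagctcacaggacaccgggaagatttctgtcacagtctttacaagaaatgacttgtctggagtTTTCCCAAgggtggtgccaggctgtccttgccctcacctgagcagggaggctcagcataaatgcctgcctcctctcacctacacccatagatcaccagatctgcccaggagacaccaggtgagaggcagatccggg
Saa2 promoter: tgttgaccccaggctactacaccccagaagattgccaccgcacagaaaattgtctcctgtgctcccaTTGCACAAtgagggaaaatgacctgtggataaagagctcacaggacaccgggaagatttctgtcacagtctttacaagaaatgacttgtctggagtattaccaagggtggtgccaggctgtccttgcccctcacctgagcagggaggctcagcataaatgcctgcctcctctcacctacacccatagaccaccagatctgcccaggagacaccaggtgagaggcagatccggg
The Saa1 and Saa2 promoters were identical at 287 of 301 aligned columns (95.3%). Both held TTGCACAA, 182 bases before the start in Saa1 and 183 in Saa2, and Saa1 also held TTTCCCAA at 86. Orm2 lies at chr4:63362199-63362498 and Orm3 at chr4:63355908-63356207, both on the plus strand.
Orm2 promoter: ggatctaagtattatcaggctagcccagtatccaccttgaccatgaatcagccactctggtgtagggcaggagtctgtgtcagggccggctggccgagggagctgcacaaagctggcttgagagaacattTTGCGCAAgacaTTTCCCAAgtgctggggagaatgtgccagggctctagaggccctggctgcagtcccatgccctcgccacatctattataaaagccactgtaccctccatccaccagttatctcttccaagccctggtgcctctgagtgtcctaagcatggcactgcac
Orm3 promoter: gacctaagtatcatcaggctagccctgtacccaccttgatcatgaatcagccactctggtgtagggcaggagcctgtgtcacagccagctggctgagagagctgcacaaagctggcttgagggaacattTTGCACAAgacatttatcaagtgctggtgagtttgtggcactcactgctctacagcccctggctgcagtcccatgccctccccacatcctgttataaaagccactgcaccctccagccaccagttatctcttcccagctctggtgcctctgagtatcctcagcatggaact
These were identical at 86.2% of aligned columns. Orm2 held TTGCGCAA 120 bases before the start and TTTCCCAA at 108 and Orm3 held TTGCACAA at 121.

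The C/EBP letters were found in 7 of the 8 promoters, against 40.7% of all 32851 RefSeq promoter windows. The 7 include the near copies Saa1 with Saa2 and Orm2 with Orm3, so they are not 7 independent promoters, and the difference was not tested. The exception was Apcs, which alone of the 8 held the STAT letters (TTCTAGGAA, 244 bases before the start), a pattern present in 8.30% of all windows. The NF-κB letters were found only in Saa3 among the 8, as GGAAATGCC, a match read on the other strand, and in 18.5% of all windows. A match is a run of letters and not a site of binding.

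Levels differed by orders of magnitude between the genes. On the TPM scale, which divides the counts of each transcript by its annotated length and scales the sum to be equal in all libraries, Hp, which encodes haptoglobin, the plasma protein that captures free hemoglobin, stood highest with 2668 to 4025 TPM over the 8 livers. Orm1, an orosomucoid or α1-acid glycoprotein that carries lipids and drugs in plasma, followed with 829 to 1426, and Saa4, the constitutive serum amyloid A, with 218 to 323. These 3 levels did not overlap with each other or with the next gene in any library.

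Below them, Apcs (80.4 to 149 TPM) and Saa1 (64.2 to 125) overlapped, and both stood above the remaining 5. Saa2 reached 17.9 to 28.5, Orm2 8.81 to 31.5, Lcn2 6.39 to 32.7, Saa3 7.20 to 13.1 and Orm3 1.15 to 12.7 TPM, and neighbors in this order overlapped. By mean level, Hp ranked 46 and Orm3 7728 among all genes. The 10 genes held 0.309% to 0.429% of the counts of a library.

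**Figure D1:**
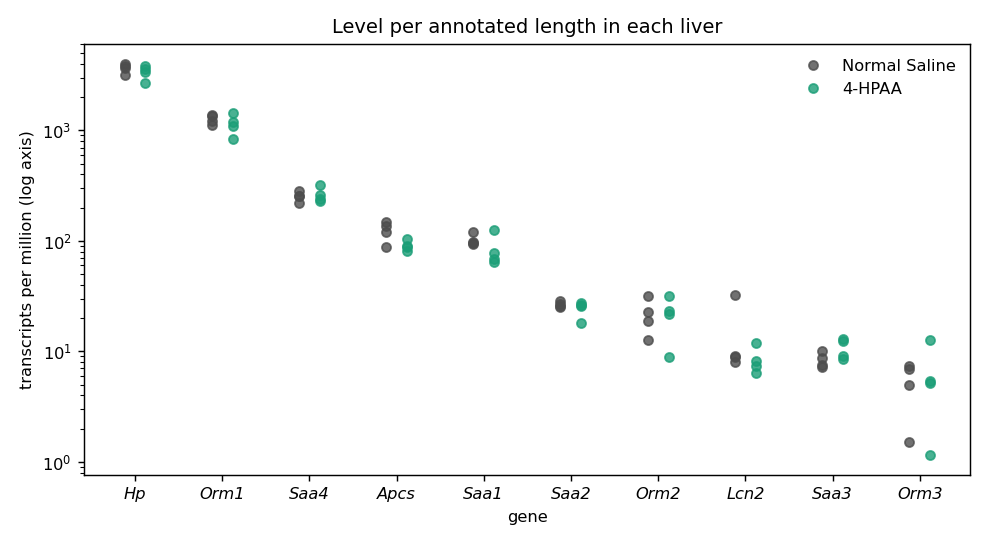
Level per annotated length of each gene (log axis, TPM) in each of the 8 livers, with Normal Saline in gray and 4-HPAA in green. Hp lies between 2668 and 4025 and Orm3 between 1.15 and 12.7, and the colors overlap in every gene.

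No change with 4-HPAA beyond the spread between mice was called in any of the 10 genes. In edgeR's quasi-likelihood test, adjusted by Benjamini-Hochberg over the 12883 genes tested, 0 of 10 passed an adjusted p of 0.05, where 0% of all genes passed, and the adjusted p was 1.00 for each of the 10. At an unadjusted p under 0.05 there was 1 of the 10, Apcs, against 1.75% of all genes. In 0 of the 10 did the 4 values of one group lie apart from the 4 of the other, against 1.2% of all genes.

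By their mean, 3 genes were higher with 4-HPAA (Saa3, Saa4 and Orm3) and 7 were lower, and in 6 of the 10 the log2 fold change was smaller than its own standard error. The median log2 fold change was -0.13 for the 10 genes and 0.00071 for all genes tested, of which 50.4% were higher. The median size of the log2 fold change, whatever its sign, was 0.20 for the 10 and 0.07 for all genes. In the sentences that follow, values are CPM in replicates 1 to 4 of each group, fold changes are 4-HPAA over Normal Saline on the log2 scale with the standard error, and the exact permutation tests are two-sided over 70 arrangements, of which the smallest possible p is 0.0286.

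**Figure D2:**
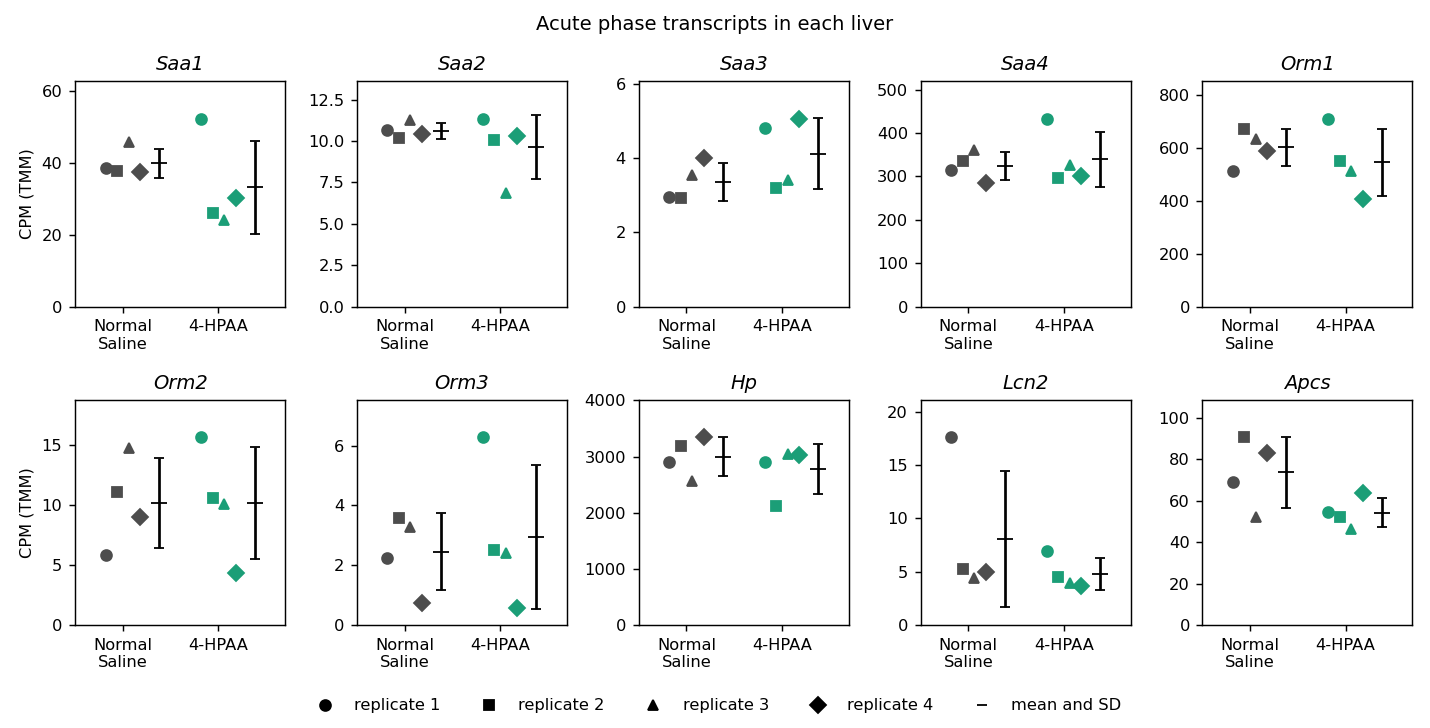
CPM (TMM scale) of each gene in each liver, from 0, with the marker shape giving the replicate number and bars the mean and SD of 4 mice per group. The groups overlap in all 10 panels, and 4-HPAA replicate 1 (green circle) is the highest of the 8 livers for Saa1, Saa2, Saa4, Orm1, Orm2 and Orm3.

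Saa1 and Saa2 encode the acute serum amyloid A proteins of high-density lipoprotein. Saa1 (ENSMUSG00000074115) was at 38.5, 37.9, 45.8 and 37.5 CPM with Normal Saline and at 52.4, 26.0, 24.1 and 30.2 with 4-HPAA. The 4-HPAA livers lay on both sides of the controls, with replicate 1 above all 4 and the other three below all 4. The means were 39.9 ± 3.97 and 33.2 ± 13.0 (SD, n = 4), with a log2 fold change of -0.27 (SE 0.22, unadjusted p = 0.253 by edgeR, exact permutation p = 0.229). Without 4-HPAA replicate 1 the log2 fold change of Saa1 was -0.57 (unadjusted p = 0.000672, adjusted p = 0.732 by edgeR). That fit leaves out the only 4-HPAA liver above the controls, so its small p is no evidence of a change. With any other single library omitted, the log2 fold change was -0.30 to -0.14 (unadjusted p = 0.262 to 0.535 by edgeR). Without both libraries numbered 1, which also leaves out 4-HPAA replicate 1, it was -0.59 (unadjusted p = 0.00132, adjusted p = 0.9998 by edgeR).

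Saa2 (ENSMUSG00000057465) was at 10.7, 10.2, 11.3 and 10.4 CPM with Normal Saline and at 11.4, 10.1, 6.86 and 10.3 with 4-HPAA. Again 4-HPAA replicate 1 was the highest and replicate 3 the lowest of the 8 livers. The log2 fold change was -0.14 (SE 0.14, unadjusted p = 0.354 by edgeR, exact permutation p = 0.429). Without 4-HPAA replicate 3 it was -0.0057. The sum of Saa1 and Saa2 gave a log2 fold change of -0.24 (SE 0.19, adjusted p = 1.00 by edgeR, exact permutation p = 0.229).

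The spread within the groups was unequal for this pair. The SD of log2 CPM of Saa1 was 0.14 with Normal Saline and 0.50 with 4-HPAA, and that of Saa2 was 0.06 and 0.32. Over the 10 genes the SD was larger with 4-HPAA in 8, all but Lcn2 and Apcs, where 55.1% of all genes tested had the larger SD in that group. The median SD of the 10 was 0.19 with Normal Saline and 0.33 with 4-HPAA, against 0.16 and 0.18 over all genes. Equality of the spread was not tested, and the 8 include near copies, so they are not 8 independent genes.

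Saa3 encodes the serum amyloid A made largely outside the hepatocyte, in macrophages and adipose tissue. Saa3 (ENSMUSG00000040026) was at 2.95, 2.92, 3.55 and 4.02 CPM with Normal Saline and at 4.82, 3.19, 3.42 and 5.08 with 4-HPAA. Replicates 1 and 4 of the 4-HPAA group lay above all controls and the other two among them. The log2 fold change was 0.30 (SE 0.19, unadjusted p = 0.149 by edgeR, exact permutation p = 0.229), the only one of the 3 higher genes that exceeded its standard error. Its main transcript ENSMUST00000006956 had a log2 fold change of 0.42 and its minor coding transcript ENSMUST00000210913 one of -0.25. Macrophage and adipocyte markers, whose part in this was not tested, overlapped between the groups in their sums (adipocyte markers 4.93 to 8.22 CPM with Normal Saline and 4.70 to 8.31 with 4-HPAA). Nearly all of the adipocyte sum was Fabp4, with 7.94 CPM in Normal Saline replicate 1 and 8.14 in 4-HPAA replicate 4, the highest of each group. Of the 5 adipocyte markers only Fabp4 passed the filter on low counts, and Adipoq had 0 to 2 counts.

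Saa4 (ENSMUSG00000040017), the member of the family that hepatocytes make without induction, was at 314, 335, 362 and 284 CPM with Normal Saline and at 433, 297, 327 and 301 with 4-HPAA. Only replicate 1 of the 4-HPAA livers lay outside the range of the controls. The log2 fold change was 0.07 (SE 0.13, unadjusted p = 0.614 by edgeR, exact permutation p = 0.743), and without 4-HPAA replicate 1 it was -0.07.

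The 3 orosomucoids are near copies that differ in level, and their spread over the livers was unequal too. Orm1 (ENSMUSG00000039196) was at 510.3, 671, 632 and 588 CPM with Normal Saline and at 709, 550.2, 511 and 405 with 4-HPAA. The highest and the lowest liver were both in the 4-HPAA group, replicates 1 and 4. The means were 600.2 ± 69.0 and 544 ± 126 (SD, n = 4), with a log2 fold change of -0.14 (SE 0.16, unadjusted p = 0.398 by edgeR, exact permutation p = 0.429). Without both libraries numbered 1 it was -0.37 (unadjusted p = 0.0264, adjusted p = 0.9998 by edgeR). That fit leaves out the highest 4-HPAA liver and the lowest control, so its small p is no evidence of a change.

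Orm2 (ENSMUSG00000061540) was at 5.83, 11.1, 14.8 and 9.03 CPM with Normal Saline and at 15.7, 10.6, 10.1 and 4.30 with 4-HPAA. Its extremes were the same pair of 4-HPAA livers, and the group means were equal at 10.2 CPM. The log2 fold change was -0.0031 (SE 0.36, unadjusted p = 0.993 by edgeR, exact permutation p = 0.914), a change far smaller than its error.

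Orm3 (ENSMUSG00000028359) was at 2.25, 3.57, 3.28 and 0.721 CPM with Normal Saline and at 6.29, 2.50, 2.39 and 0.560 with 4-HPAA. Replicate 4 was the lowest of each group, and 4-HPAA replicate 1 stood 11.2-fold above 4-HPAA replicate 4. The log2 fold change was 0.26 (SE 0.62, unadjusted p = 0.688 by edgeR, exact permutation p = 0.943), and without 4-HPAA replicate 1 it was -0.43. As a sum, the 3 Orm genes had a log2 fold change of -0.14 (SE 0.17, adjusted p = 1.00 by edgeR, exact permutation p = 0.486).

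Hp (ENSMUSG00000031722) was at 2904, 3185, 2557 and 3347 CPM with Normal Saline and at 2903, 2121, 3042 and 3037 with 4-HPAA. The low value in 4-HPAA replicate 2 stood apart from the other three of its group, which lay among the controls. The means were 2998 ± 347 and 2776 ± 442 (SD, n = 4), with a log2 fold change of -0.11 (SE 0.14, unadjusted p = 0.452 by edgeR, exact permutation p = 0.486), and without 4-HPAA replicate 2 it was -0.0021. A minor transcript of Hp, chosen after its values were seen, is given against the background of all transcripts. The noncoding ENSMUST00000212018, which held 0.354% of the counts of Hp, had 368, 384, 419 and 372 estimated counts with Normal Saline and 331, 171, 238 and 149 with 4-HPAA, and the groups did not overlap, as in 2.1% of the 25533 transcripts tested and in 1 of the 15 tested from the 10 genes. Its log2 fold change was -0.76 (SE 0.23, unadjusted p = 0.00795, adjusted p = 1.00 by edgeR's quasi-likelihood test), and 136 transcripts (0.533%) had an unadjusted p as small. An unadjusted p under 0.05 was found in 3.83% of transcripts and in 2 of the 15, the other being that of Apcs, and 0% passed after adjustment.

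Lcn2 encodes lipocalin-2, which binds bacterial siderophores and is made by neutrophils as well as by hepatocytes in the acute phase. Lcn2 (ENSMUSG00000026822) was at 17.6, 5.21, 4.43 and 4.98 CPM with Normal Saline and at 6.98, 4.47, 3.98 and 3.67 with 4-HPAA. Normal Saline replicate 1 stood above the other 7 livers, which lay within 3.67 to 6.98 CPM. The log2 fold change was -0.76 (SE 0.44, unadjusted p = 0.119 by edgeR, exact permutation p = 0.40), and it was -0.03 without that single liver. In the same liver the neutrophil markers summed to 1.83 CPM, the lowest of the Normal Saline group, and S100a8 had 7 counts. The sums of the cholangiocyte markers (45.5 CPM) and of the stellate cell and fibroblast markers (208 CPM) were the highest of the 8 livers there. Of that cholangiocyte sum, 38.5 CPM came from Spp1. The stellate cell and fibroblast sum was also 191 and 196 CPM in 4-HPAA replicates 2 and 3, where Lcn2 was at 4.47 and 3.98 CPM. Genes of the acute phase lists that stood above the other controls in Normal Saline replicate 1 included Serpina3m, an antiprotease (576 CPM against 284 to 330 in the other controls), Mt1, a metallothionein (603 against 234 to 393), Cebpd, the C/EBPδ factor (14.0 against 7.35 to 10.7), and Osmr, the oncostatin M receptor (4.87 against 2.74 to 2.89). These were picked after their values were seen, and the lists were not counted for that liver. Others went the other way there, with Orm1 (510.3 CPM against 588 to 671) and Orm2 (5.83 against 9.03 to 14.8) the lowest of the controls. Saa1 (38.5 CPM) and Crp (335 CPM) lay among the controls in that liver. The part of other cells in the Lcn2 value of that liver was not tested.

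Apcs encodes serum amyloid P, a pentraxin that in the mouse takes the acute phase role that C-reactive protein has in humans. Apcs (ENSMUSG00000026542) was at 68.9, 90.8, 52.1 and 83.1 CPM with Normal Saline and at 54.7, 52.2, 46.6 and 63.8 with 4-HPAA. The upper 3 livers were all controls, while the control replicate 3 lay among the 4-HPAA livers. The means were 73.7 ± 17.0 and 54.3 ± 7.19 (SD, n = 4), with a log2 fold change of -0.44 (SE 0.17, unadjusted p = 0.0239 and adjusted p = 1.00 by edgeR's quasi-likelihood test, exact permutation p = 0.114). This was the smallest unadjusted p of the 10 genes and ranked 96 among the 12883 genes. Crp, the other pentraxin, had a log2 fold change of -0.13 (SE 0.11).

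**Figure D3:**
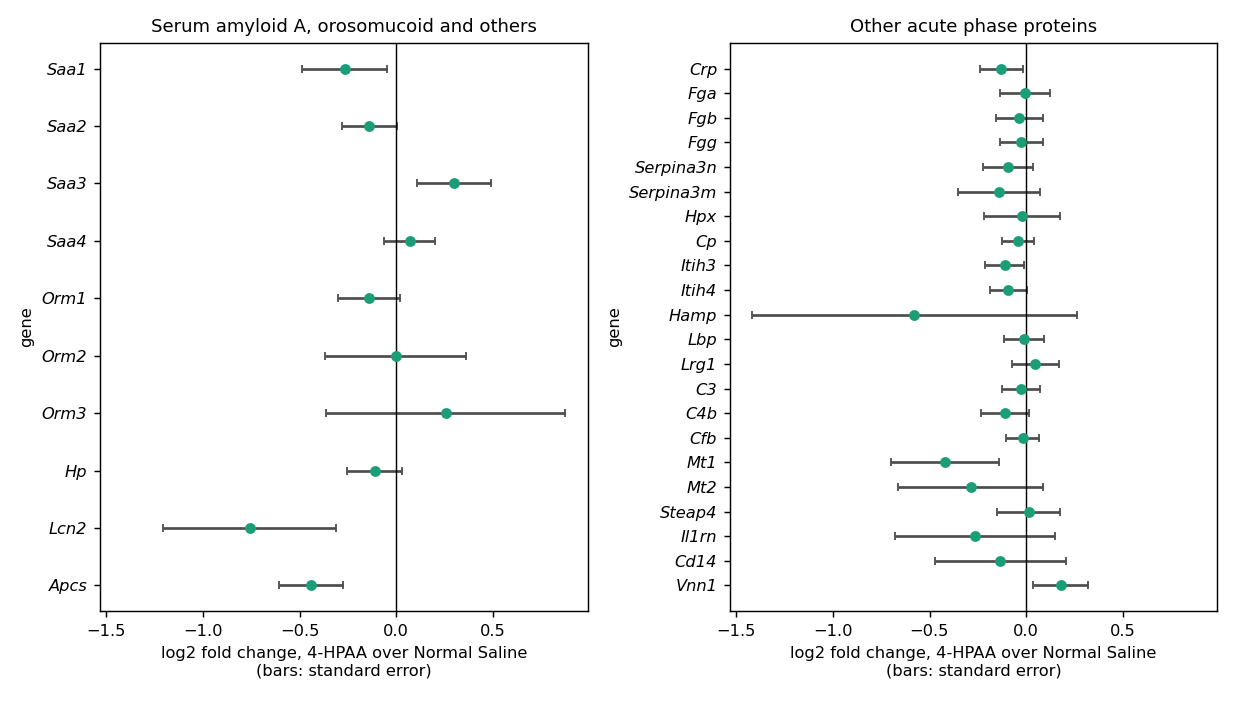
Log2 fold change (4-HPAA over Normal Saline, bars: standard error) of the 10 genes on the left and of 22 other positive acute phase proteins on the right, on the same scale. The widest bar on the left is that of Orm3 (SE 0.62) and on the right that of Hamp (SE 0.84), and no gene passed an adjusted p of 0.05.

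Read across the livers instead of the groups, the genes varied widely. The log2 range over the 8 livers was above the median of all genes (0.51) in all 10, with a median of 0.88. It was largest for Orm3 (3.34, with 99.7% of genes below it), Lcn2 (2.24, 98.7%) and Orm2 (1.85, 97.4%), and smallest for Saa4 (0.61, 59.8%). Orm3 had 16 to 180 estimated counts, and Saa3, with a log2 range of 0.78, had 85.3 to 145.

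The highest liver was 4-HPAA replicate 1 in 6 of the 10 genes, those of the Saa and Orm clusters other than Saa3. These 6 include near copies, so they are not 6 independent genes. The share of all genes that were highest in that liver was not counted. The lowest was 4-HPAA replicate 4 in 4 genes (the 3 Orm genes and Lcn2) and 4-HPAA replicate 3 in 3 genes (Saa1, Saa2 and Apcs). Summed over the 4 genes, serum amyloid A transcripts reached 502 CPM in 4-HPAA replicate 1 and 336 to 422 CPM in the other 7 livers. The 3 orosomucoids summed to 731 CPM in 4-HPAA replicate 1, to 409.8 in 4-HPAA replicate 4 and to between 518 and 686 in the others. Thus the 4-HPAA group held both ends of the orosomucoid range.

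**Figure D4:**
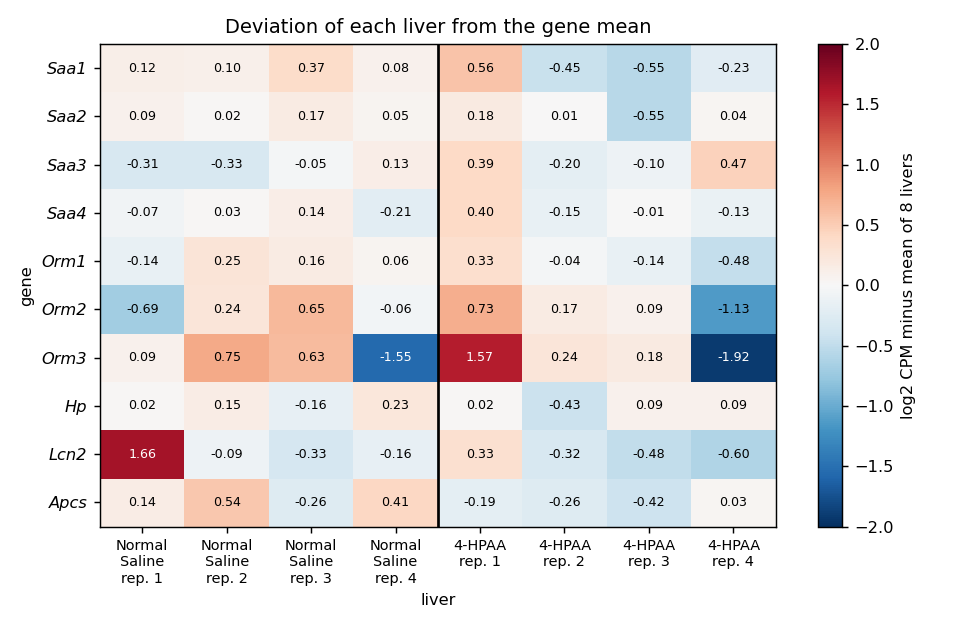
Difference of log2 CPM from the mean of the 8 livers for each gene (rows) and liver (columns, the line parts the groups), with the value in each cell. The largest deviations are -1.92 and 1.57 for Orm3 in 4-HPAA replicates 4 and 1 and 1.66 for Lcn2 in Normal Saline replicate 1.

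Pairs of the genes were next compared over the 8 livers. Among 45 pairs of the 10 genes, 31 had a positive correlation of log2 CPM and 5 an unadjusted p under 0.05 (exact permutation test over 40320 orderings), with 0 below 0.05 after Benjamini-Hochberg adjustment. For Saa1 and Saa2, Pearson's r was 0.75 (exact permutation p = 0.00327, adjusted p = 0.0737) and Spearman's rho 0.93 (adjusted p = 0.0502), and r was 0.84 without the 2 livers farthest from the median of Saa1. For Orm1 and Orm2, r was 0.89 (exact permutation p = 0.00246, adjusted p = 0.0737) and rho 0.90 (adjusted p = 0.0685), and r was 0.65 without 4-HPAA replicates 1 and 4.

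For Orm2 and Orm3, r was 0.77 (exact permutation p = 0.0298, adjusted p = 0.312) and rho 0.95 (exact permutation p = 0.00114, adjusted p = 0.0502), and r was 0.82 without the 2 livers farthest from the median of Orm2. For Orm1 and Orm3, r was 0.75 (exact permutation p = 0.0346, adjusted p = 0.312) and rho 0.86 (adjusted p = 0.121), but r was 0.22 without 4-HPAA replicates 1 and 4, so this relation rests on those livers. These pairs share the sequences given above, and the part of shared reads in their relation was not tested. With each group centred on its own mean, an alternative added after seeing the data, r was 0.70 for Saa1 and Saa2 (exact permutation within groups over 576 orderings, p = 0.253), 0.92 for Orm1 and Orm2 (p = 0.0122), 0.77 for Orm2 and Orm3 (p = 0.0729) and 0.80 for Orm1 and Orm3 (p = 0.0521). Of the 45 pairs centred in this way, 2 had an unadjusted p under 0.05 and 0 an adjusted one.

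Gene profiles most like those of Orm3 and Lcn2, the members with the widest range, were looked up among the 12883 genes tested. Genes outside the family far outnumber its members, so an outside gene was likely to be nearest in any case. No conclusion is drawn from the nearest genes lying outside the family. The likeness was the root mean square difference of log2 CPM, each gene centred on its mean over the 8 livers. The deviations of Orm3 itself had a root mean square of 1.05. Its nearest genes were Mup19 (0.41), Cyp2c37 (0.45) and Slc22a7 (0.46), a major urinary protein, a cytochrome P450 and an organic anion transporter. The member nearest to Orm3 was Orm2 (0.70), at rank 100 where 12883 genes were tested. For Lcn2 (own root mean square 0.68) the nearest genes were Ntf3 (0.27), Ptp4a1 (0.27) and Rgs16 (0.33). The member nearest to Lcn2 was Saa1 (0.63, at rank 1621). Whether these ranks differ from those of genes taken at random was not tested.

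The transcripts of single genes added a pattern in Normal Saline replicate 1. Of Saa1, 93.6% of the counts were in the coding transcript ENSMUST00000128088 and 6.35% in ENSMUST00000210547, which is annotated as keeping an intron. The retained-intron transcript of Saa1 had 196, 39.3, 44.5 and 40.6 estimated counts with Normal Saline and 130, 41.5, 33.0 and 26.7 with 4-HPAA. It was thus high in replicate 1 of each group, at 16.3% and 8.68% of the gene, and at 3.09% to 5.33% in the other 6 livers. Its log2 fold change between the groups was -0.40 (SE 0.65).

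Retained-intron transcripts of Lcn2 held 86.9 counts in Normal Saline replicate 1, where the gene was highest, and 1.05 to 31 in the other livers. As a share of the gene this was 15.8% in that liver and 1.00% to 21.4% in the others, so the share of Lcn2 there was within the range. The main coding transcript of Lcn2 had 407 counts in Normal Saline replicate 1, 105 to 122 in the other controls and 102 to 172 with 4-HPAA. Its noncoding processed transcript had 49.1 counts in that liver, 2.99 to 9.42 in the other controls and 0 to 9.04 with 4-HPAA. The retained-intron transcript of Saa2 had 28.5 counts in Normal Saline replicate 1 and 1.17 to 11 in the other livers. Over all genes, retained-intron transcripts held 2.26% of the counts of Normal Saline replicate 1 and 2.30% of those of 4-HPAA replicate 1, within the 1.94% to 2.37% of the 8 libraries.

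**Figure D5:**
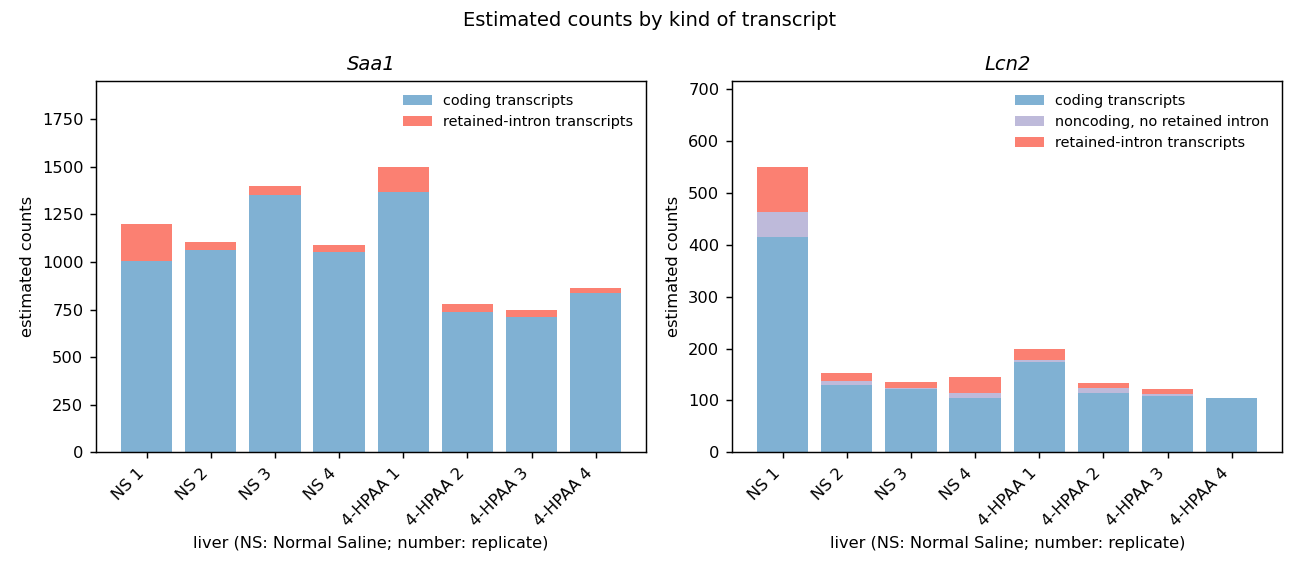
Estimated counts of Saa1 and Lcn2 in each liver (NS: Normal Saline, with the replicate number), stacked by kind of annotated transcript, from 0. The retained-intron part of Saa1 is largest in Normal Saline replicate 1 (196 counts) and 4-HPAA replicate 1 (130), and in Lcn2 the coding, retained-intron (86.9 counts) and other noncoding (49.1) parts are all largest in Normal Saline replicate 1.

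The wider acute phase program showed no called change either. Of 22 other positive acute phase proteins, 3 were higher and 19 lower with 4-HPAA, 0 passed and the median log2 fold change was -0.07, against 0.00071 for all genes. The extremes were Vnn1, a pantetheinase (0.18, SE 0.14), and Hamp, which encodes the iron hormone hepcidin (-0.58, SE 0.84). Hamp ranged from 514 to 20891 estimated counts among the controls and from 2675 to 11777 with 4-HPAA. Of 10 negative acute phase proteins, whose levels decline in the response, 2 were higher and 8 lower, with a median of -0.04 and extremes in Ttr, transthyretin (0.04, SE 0.10), and Serpina6, the corticosteroid carrier (-0.17, SE 0.17).

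The cytokines that drive the program were scarcely measured in liver RNA. Of 8 ligands only Il1a passed the filter on low counts (log2 fold change -0.04, SE 0.34), and 6 had under 10 counts in every library, Il6 among them with at most 2. Of 19 receptors and signal transducers, 13 were higher and 6 lower, 0 passed, and the median was 0.03, from Nfkb1 (-0.06, SE 0.11) to the interleukin-1 receptor Il1r1 (0.32, SE 0.22).

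Of 10 feedback inhibitors and response genes, 8 were tested, 5 were higher and 3 lower, and 0 passed. Pim1, a kinase induced through STAT signaling, was at 15.5, 17.4, 20.4 and 21.3 CPM with Normal Saline and at 28.1, 22.7, 23.6 and 30.0 with 4-HPAA. The 2 groups of Pim1 did not overlap, as in 1.2% of all genes tested, with a log2 fold change of 0.49 (SE 0.13, unadjusted p = 0.00334, adjusted p = 1.00 by edgeR's quasi-likelihood test). It was the 1 gene of the 8 with an unadjusted p under 0.05, against 1.75% of all genes, and its values are shown because they were seen. Socs3, the inhibitor of interleukin-6 signaling, had a log2 fold change of 0.37 (SE 0.31), and the lowest of the list was Tnfaip3 (-0.23, SE 0.25).

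Of 19 ligands, receptors and partners of the proteins studied here, 18 were tested, with 6 higher, 12 lower and 0 passed. Lrp2, a receptor for lipocalin-2, had the largest log2 fold change (0.47, SE 0.27). The hemoglobin chain Hbb-bt, whose product haptoglobin binds, had the smallest (-2.11, SE 1.07), with 264 CPM in Normal Saline replicate 2 and 15.0 to 28.0 in the other controls, and 54.6 CPM in 4-HPAA replicate 4 and 6.17 to 8.04 in the others of that group. The haptoglobin-hemoglobin receptor Cd163 had a log2 fold change of 0.13 (SE 0.57) and the heme oxygenase Hmox1 one of -0.02 (SE 0.35).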

How the data were processed

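Liver RNA of 8 mice was sequenced from a directional mRNA library. The authors used kallisto for pseudo-alignment and deposited estimated counts by transcript and library, neither normalized nor pooled. The submitters' processing notes name FastQC 0.11.9, kallisto, DESeq2 and edgeR. The study names NCBI annotations of GRCm38.p6, whereas the transcripts are listed by Ensembl identifiers. The library kit marks strand, and the study states standard parameters for kallisto, under which strand is not used. Groups and replicate numbers are those of the sample titles.

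Of 119414 transcripts, 116728 matched the GENCODE M21 annotation of GRCm38. Their estimated counts were summed per gene and rounded, and the 2686 others (0.703% to 1.06% of the counts of a library) were left out. A minimum of 10 counts in each of the 8 libraries left 12883 genes, which were fitted together in edgeR 4.0.16 (R 4.3.3) with TMM factors, the quasi-likelihood F test, no covariate and a Benjamini-Hochberg threshold of 0.05. Standard errors are log2 fold changes over the root of F. The log2 CPM values use a prior count of 2, except in the figure of deviations from the mean of the 8 livers, where none is added. Levels per length divide each transcript's count by its annotated length. At a depth of 29559978 to 30673398 counts, the spread between mice sets the precision of all but the lowest genes, and values of single copies of a family also carry the error of dividing shared reads. The steps were tested on simulated data.

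Other fits used DESeq2 1.42.0, voom of limma 3.58.1, other normalizations and filters, single transcripts, sums of near copies, the replicate number as a block and the omission of libraries. The 10 genes, the gene lists and the motifs were chosen with earlier results of these data known. All 10 genes are named, of each other list the largest and the smallest log2 fold change, and for the 2 genes with the widest range the 3 nearest profiles. Crp, Socs3, Cd163, Hmox1, Il6, S100a8, Ly6g, Serpina3m, Mt1, Cebpd, Osmr, Spp1, Fabp4, Adipoq and the Hp transcript were named in addition, after their values were seen, as was Pim1 with its values in each library.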

Additional observations from a re-analysis of the deposited data

Results flagged for a closer look

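A library was singled out where its gap to the nearest of the other three in its group exceeded Dixon's critical share of the group's range, which chance gives in about 1 of 20 groups. This held in 6 of 42 groups of 4 over 21 genes, and in 3 of the 20 groups of the acute phase genes themselves. The genes other than the members were those with the largest or smallest log2 fold change of each list. As they were chosen by these values and all genes share the same livers, the counts are not a test against 1 of 20.

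Lcn2 was at 17.6 CPM in Normal Saline replicate 1 and at 4.43 to 5.21 in the other controls. Hp was at 2120.5 CPM in 4-HPAA replicate 2 and at 2903 to 3042 in the others of its group. Saa1 was at 45.8 CPM in Normal Saline replicate 3 and at 37.5 to 38.5 in the other controls, a gap that is large only against a narrow group.

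Outside the family, Hbb-bt was at 264 CPM in Normal Saline replicate 2 against 15.0 to 28.0, and at 54.6 CPM in 4-HPAA replicate 4 against 6.17 to 8.04. Nfkb1 was at 13.7 CPM in 4-HPAA replicate 4 and at 18.9 to 19.7 in the others of its group.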

How the results depend on the processing

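Over 200 alternatives for the 10 genes, 183 kept the direction and the absence of a call and 17 reversed the direction, and none made a member pass. Saa1, Saa2, Hp, Lcn2 and Apcs reversed under none of theirs. Of all genes, DESeq2 called 2, neither a member, limma-voom 0, and leaving out each library 0 to 1 (1 without 4-HPAA replicate 1). Of the 10 genes, 3 were higher in the reported fit, 1 to 4 with a library left out (1 without 4-HPAA replicate 1), 5 without Normal Saline replicate 2 and 4-HPAA replicate 4, and 1 without both libraries numbered 1.

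The reversed log2 fold changes were these. For Saa3, the single transcript ENSMUST00000210913 gave -0.25. For Saa4, omitting both libraries numbered 1 gave -0.084, and omitting each library -0.065 to 0.13. For Orm1, omitting Normal Saline replicate 2 with 4-HPAA replicate 4 gave 0.026. For Orm2, the value was 0.00035 with a filter of 10 summed counts, 0.00024 with no filter, 0.0045 for its single transcript, 0.29 without Normal Saline replicate 2 and 4-HPAA replicate 4, 0.20 without both libraries numbered 4 (chosen after seeing the data) and -0.29 to 0.25 with each library omitted. For Orm3, it was -0.47 without both libraries numbered 1, -0.14 as the sum of the Orm genes and -0.43 to 0.60 with each library omitted.

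With each library omitted, the log2 fold change ran from -0.57 to -0.14 for Saa1, from -0.22 to -0.0057 for Saa2, from 0.18 to 0.40 for Saa3, from -0.29 to -0.03 for Orm1, from -0.18 to -0.0021 for Hp, from -0.997 (without 4-HPAA replicate 1) to -0.03 (without Normal Saline replicate 1) for Lcn2 and from -0.58 to -0.33 for Apcs. The cause of these shifts was not tested.

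Replicate numbers were shared by the groups, but deviations of same-numbered libraries correlated at 0.04, 0.17, 0.27 and 0.48, with a mean of 0.239. Other pairs had a mean of -0.0783. Each group was centred on its own mean, so the mean of the other pairs nearly follows from 0.239 and is no independent background. As 1 of the 4 was under 0.1 and no source read here ties the numbers to a shared litter or day, the numbers were not taken as pairs, and not every library correlated best with its own number. Adding the replicate block to the edgeR fit gave 0 calls and 336 genes at an unadjusted p under 0.05 (225 without it), and 3 of the 10 genes were higher. Members at an unadjusted p under 0.05 then numbered 2 instead of 1. In edgeR's quasi-likelihood test with the block, Apcs had an unadjusted p of 0.00501 and Lcn2 one of 0.0263, each with an adjusted p of 1.00.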
